A study of Homo sapiens with 9 samples.

Results

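The genes of base excision repair and single-strand break repair were followed across RNA-seq of TE13, an established human esophageal squamous cell carcinoma line, in which the long non-coding RNA PARylator (LINC00885) was silenced. The 9 members were UNG, OGG1, MUTYH, APEX1, POLB, XRCC1, LIG3, APTX and APLF, chosen by gene symbol from the 60605 genes of the table. Cells were transfected with a control siRNA, with PARylator siRNA.1 or with PARylator siRNA.2, and each group held 3 libraries that the submitters call biological replicates. The time between transfection and RNA extraction is not given in the sources used here, and all results come from this single line. The comparison of each siRNA with control siRNA asks whether the transcripts of this pathway move when PARylator is silenced, and the comparison of siRNA.2 with siRNA.1 tests directly whether the 2 siRNAs gave different levels.

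Base excision repair begins when a DNA glycosylase cuts a damaged or wrong base from its sugar, after which an endonuclease opens the backbone at the empty site, a polymerase fills the gap and a ligase seals the nick. Single-strand break repair shares the later steps. There, PARP1 senses the break and makes poly(ADP-ribose) chains, which draw in the scaffold protein XRCC1 with its partner ligase.

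The libraries held 15337917 to 17899074 counts with control siRNA, 15374616 to 17762752 for siRNA.1 and 19213164 to 22559998 for siRNA.2. Levels below are FPKM, fragments scaled to gene length and to the library total, and log2 fold changes are from edgeR on the counts, with Benjamini-Hochberg adjusted p over the 21395 genes tested and a threshold of 0.05. LINC00885 itself had 6, 7 and 12 counts with control siRNA, 4, 5 and 2 with siRNA.1 and 2, 0 and 4 with siRNA.2. Its fold change did not pass the test with siRNA.1 (log2 -1.21, edgeR adjusted p = 0.376) or siRNA.2 (log2 -2.33, edgeR adjusted p = 0.0659, DESeq2 adjusted p = 0.0472), so the knockdown could not be checked firmly at this depth. The paper reports the knockdown by qPCR, in TE13 cells among others. All 8 epithelial marker genes listed, KRT5, KRT14, KRT17, KRT6A, TP63, DSG3, EPCAM and CDH1, were above a mean of 1 FPKM in each of the 3 groups. This low bar does not by itself set the cell type. Summed levels of these 8 genes were 650 to 662 FPKM with control siRNA, 573 to 600 for siRNA.1 and 563 to 582 for siRNA.2. The share of counts from mitochondrial genes was 7.46% to 7.66% with control siRNA, 4.99% to 5.06% for siRNA.1 and 5.54% to 5.56% for siRNA.2, and the part of these shifts in the results below was not tested.

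All 9 members passed the filter of a mean of 0.1 FPKM. In control cells their levels spanned a wide range, from APEX1 at 101 ± 3.24 FPKM (SD, n = 3), above 98.9% of the genes detected, to APLF at 0.423 ± 0.0971 FPKM, above 45.1%. The order of the control means was APEX1, UNG, XRCC1, POLB, APTX, LIG3, OGG1, MUTYH and APLF. Neighbours in this order did not overlap in their control libraries, with 1 exception, OGG1 and MUTYH, whose means differed by 1.17-fold within their spread. MUTYH and APLF, 1.76-fold apart in control cells, did overlap once all 9 libraries were considered. The widest gaps were between APEX1 and UNG, at 3.70-fold, and between LIG3 and OGG1, at 2.74-fold. The order, the gaps and the shares depend on the gene length used. That was the whole annotated exonic length, from 1886 bases for APEX1 to 15614 for APTX. By counts, APTX held 788 to 1384 a library, above the 415 to 720 of XRCC1, whose length was 2745 bases. Levels by the length of the transcripts in use were not computed. APEX1 alone made up 62.4% to 66.9% of the summed FPKM of the 9 members in every library. That sum was 149 to 159 FPKM with control siRNA, 153 to 162 for siRNA.1 and 169 to 185 for siRNA.2, so only the siRNA.2 libraries stood wholly above the control libraries.

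**Figure D1:**
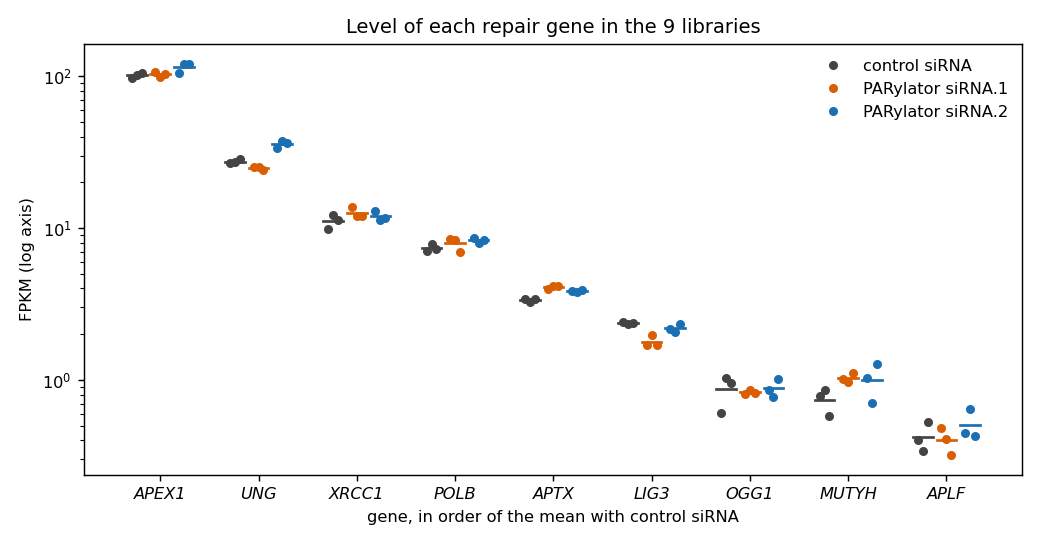
FPKM of each of the 9 members in every library on a log axis, with control siRNA, siRNA.1 and siRNA.2 in separate colours, each point a library and each bar the group mean. APEX1 sits near 101 FPKM and APLF near 0.423 FPKM in control cells, and UNG and APTX are the members whose 3 groups are each separate from the others.

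With siRNA.1, 3 of the 9 members passed the test, against 30.3% of all genes tested. APTX rose (15.0% of all genes tested were higher), while LIG3 and UNG fell (15.2% were lower). With siRNA.2, 3 of 9 passed against a background of 30.9%, and all of these, APTX, APEX1 and UNG, rose, where 15.8% of all genes tested were higher and 15.1% lower. Both shares are near the background and are no result about the 9 members as a group. Between siRNA.2 and siRNA.1, 3 of 9 members differed, LIG3, APEX1 and UNG, all higher with siRNA.2, where 12.2% of all genes tested differed, 6.1% higher and 6.06% lower. This last count fell to 1 without siRNA.2 replicate 3 and under limma on log2 FPKM, UNG being the member that passed in each. The median log2 fold change of the members was -0.0022 with siRNA.1, 0.18 with siRNA.2 and 0.12 between the siRNAs, beside medians of -0.00056, 0.0040 and 0.0043 over all genes tested. Both siRNA comparisons share the same 3 control libraries, so they are not independent of each other.

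**Figure D2:**
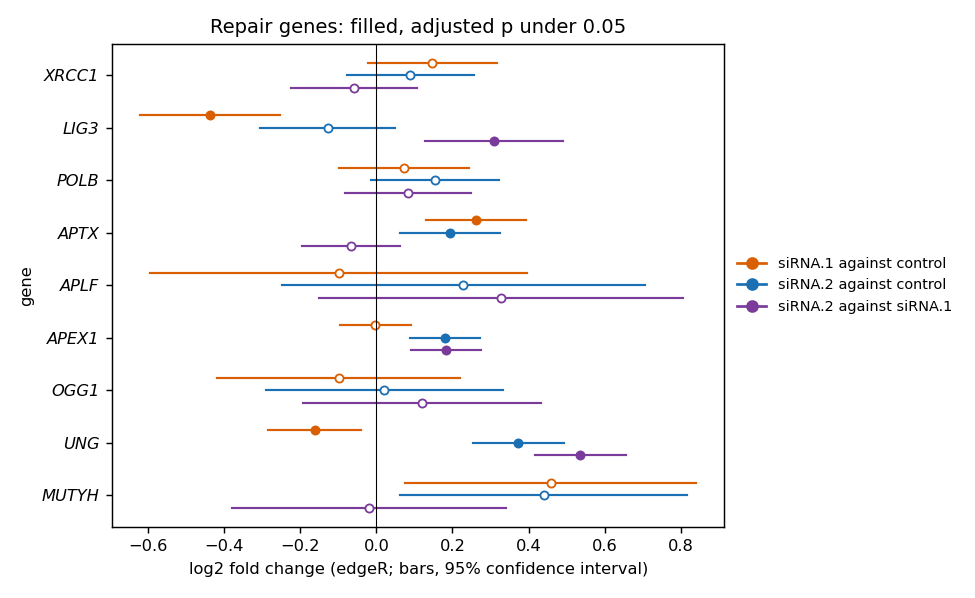
Log2 fold change of each member by edgeR for siRNA.1 against control, siRNA.2 against control and siRNA.2 against siRNA.1, with bars for the 95% confidence interval and filled points for an adjusted p under 0.05. UNG lies at -0.16 for siRNA.1 and 0.37 for siRNA.2, LIG3 at -0.44 and -0.13, and APTX above 0 with both.

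UNG (ENSG00000076248, GRCh38 chromosome 12, 109097597 to 109110992 in the deposited table, plus strand) encodes the glycosylase that removes uracil from DNA. It was the member with the clearest difference between the 2 siRNAs. Its level was 26.60, 27.01 and 28.35 FPKM with control siRNA, 25.38, 25.29 and 24.02 with siRNA.1, and 33.61, 37.32 and 36.07 with siRNA.2. Every siRNA.2 library lay above every control library, and every siRNA.1 library lay below them. With siRNA.2, UNG rose by 29.5%, a log2 fold change of 0.37 with an SE of 0.06 (95% confidence interval 0.25 to 0.49, edgeR adjusted p = 1.00e-08). With siRNA.1 the log2 fold change was -0.16 with an SE of 0.06 (edgeR adjusted p = 0.0346), a loss of 10.6%. That siRNA.1 call did not hold under 9 of 18 alternatives, with adjusted p up to 0.171. Among single libraries it was lost without siRNA.1 replicate 2 (edgeR adjusted p = 0.0520) or 3 (0.153) and without control replicate 2 (0.0516) or 3 (0.171). It was also lost with library totals alone, with no filter on low values, under both limma fits and with the replicate number as a block. The direct difference was 0.54 on the log2 scale in favour of siRNA.2, with an SE of 0.06 (95% confidence interval 0.42 to 0.65, edgeR adjusted p = 3.38e-16), and this call held in every alternative tried.

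OGG1 (ENSG00000114026, GRCh38 chromosome 3, 9749944 to 9788219, plus strand), the glycosylase for oxidised guanine, was among the lowest members. It stood at 0.61, 1.03 and 0.96 FPKM with control siRNA, 0.81, 0.86 and 0.82 with siRNA.1, and 0.86, 0.77 and 1.02 with siRNA.2. The groups overlapped throughout, control replicate 1 being the lowest library of all. The log2 fold change was -0.10 with siRNA.1 (95% confidence interval -0.42 to 0.22, edgeR adjusted p = 0.720) and 0.02 with siRNA.2 (-0.29 to 0.33, edgeR adjusted p = 0.955). With 82 to 201 counts a library, changes of any size inside these intervals were not excluded.

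MUTYH (ENSG00000132781, GRCh38 chromosome 1, 45329163 to 45340893, minus strand) encodes the glycosylase that removes adenine paired with oxidised guanine. Its libraries held 60 to 166 counts. Levels were 0.79, 0.86 and 0.58 FPKM with control siRNA, 1.01, 0.97 and 1.11 with siRNA.1, and 1.03, 0.71 and 1.27 with siRNA.2. The siRNA.1 libraries all lay above the control libraries, whereas siRNA.2 replicate 2 lay among them. Neither comparison passed, at log2 0.46 for siRNA.1 (95% confidence interval 0.08 to 0.84, edgeR adjusted p = 0.0598) and 0.44 with siRNA.2 (0.06 to 0.81, edgeR adjusted p = 0.0678). Single libraries set this side of the threshold. Without control replicate 2 both passed, at 0.58 (edgeR adjusted p = 0.0336) and 0.56 (0.0384), and without siRNA.2 replicate 2 the siRNA.2 value passed at 0.63 (0.0110). In the other direction, without control replicate 3 the values were 0.30 (edgeR adjusted p = 0.341) and 0.28 (0.374), and without siRNA.2 replicate 3 the siRNA.2 value was 0.22 (0.540). MUTYH did not differ between the siRNAs by the test (log2 -0.02, 95% confidence interval -0.38 to 0.34, edgeR adjusted p = 0.979).

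APEX1 (ENSG00000100823, GRCh38 chromosome 14, 20455191 to 20457772, plus strand) encodes the main endonuclease that cuts the backbone at a site without a base. It was by far the most abundant member, with 2825 to 5114 counts a library. Its level was 97.66, 101.53 and 104.09 FPKM with control siRNA, 106.33, 99.01 and 103.22 with siRNA.1, and 105.28, 120.79 and 120.19 with siRNA.2. The siRNA.1 libraries overlapped the control libraries, and all siRNA.2 libraries lay above them, replicate 1 by little. With siRNA.2, APEX1 rose by 13.3% (log2 0.18, SE 0.05, 95% confidence interval 0.09 to 0.27, edgeR adjusted p = 0.00059). With siRNA.1 the value was -0.0022 (95% confidence interval -0.09 to 0.09, edgeR adjusted p = 0.990), which bounds a change to within 0.09 on the log2 scale in either direction. The difference between the siRNAs was 0.18 (SE 0.05, edgeR adjusted p = 0.00147), although siRNA.2 replicate 1 lay within the siRNA.1 range. That difference no longer passed without siRNA.2 replicate 2 (log2 0.14, edgeR adjusted p = 0.0669) or replicate 3 (log2 0.15, edgeR adjusted p = 0.0649), nor under limma on log2 FPKM (adjusted p = 0.126 and 0.131 with the 2 pseudocounts).

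POLB (ENSG00000070501, GRCh38 chromosome 8, 42338454 to 42371808, plus strand) encodes the polymerase that fills the short gap. It measured 7.11, 7.80 and 7.28 FPKM with control siRNA, 8.51, 8.33 and 6.93 with siRNA.1, and 8.60, 7.91 and 8.37 with siRNA.2. All siRNA.2 libraries lay above the control libraries, replicate 2 by little, and siRNA.1 replicate 3 was the lowest library of the 9. POLB did not pass with siRNA.1 (log2 0.07, 95% confidence interval -0.10 to 0.24, edgeR adjusted p = 0.600) or siRNA.2 (log2 0.15, -0.01 to 0.32, edgeR adjusted p = 0.174). The siRNA.1 value ranged from 0.01 without siRNA.1 replicate 1 to 0.16 without siRNA.1 replicate 3.

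XRCC1 (ENSG00000073050, GRCh38 chromosome 19, 43543311 to 43580473, minus strand) is the scaffold that holds the polymerase, the ligase and the end-processing enzymes together. Its level was 9.86, 12.22 and 11.30 FPKM with control siRNA, 13.66, 11.97 and 12.02 with siRNA.1, and 12.92, 11.26 and 11.63 with siRNA.2. All 3 groups overlapped. The log2 fold change was 0.15 with siRNA.1 (95% confidence interval -0.02 to 0.32, edgeR adjusted p = 0.207) and 0.09 with siRNA.2 (-0.08 to 0.26, edgeR adjusted p = 0.495). Leaving out 1 library at a time moved the first between 0.07 and 0.22 and the second between 0.01 and 0.16, with both lowest without control replicate 1 and highest without control replicate 2. Among the 4590 other genes averaging at least 10 FPKM, those whose log2 CPM followed XRCC1 most closely over the 9 libraries were TOR3A, with a Pearson r of 0.912, CCNA2, with 0.891, and CDK5RAP1, with 0.886. These are descriptions of the highest of many values from libraries that share their groups.

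LIG3 (ENSG00000005156, GRCh38 chromosome 17, 34980512 to 35009743, plus strand) encodes the ligase that is bound to XRCC1 in the nucleus and also seals mitochondrial DNA. It was the member that fell most with siRNA.1. Its level was 2.42, 2.32 and 2.38 FPKM with control siRNA, 1.71, 1.97 and 1.69 with siRNA.1, and 2.17, 2.07 and 2.33 with siRNA.2. The siRNA.1 libraries lay below every other library, and siRNA.2 replicate 3 lay among the control libraries. With siRNA.1, LIG3 fell by 26.1% (log2 -0.44, SE 0.09, 95% confidence interval -0.62 to -0.25, edgeR adjusted p = 2.39e-05), a call that held in every alternative tried. With siRNA.2 the value was -0.13 (95% confidence interval -0.31 to 0.05, edgeR adjusted p = 0.317). The difference between the siRNAs was 0.31 (SE 0.09, edgeR adjusted p = 0.00995). It was lost without siRNA.1 replicate 1 (log2 0.28, edgeR adjusted p = 0.0544) or 3 (0.27, edgeR adjusted p = 0.0810), without siRNA.2 replicate 3 (0.25, edgeR adjusted p = 0.128), and under limma on log2 FPKM. The ratio of LIG3 to XRCC1 FPKM was 0.190 to 0.245 with control siRNA, 0.125 to 0.165 for siRNA.1 and 0.168 to 0.200 for siRNA.2, so the transcripts of these partners stood in a lower ratio in all siRNA.1 libraries than in any other.

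APTX (ENSG00000137074, GRCh38 chromosome 9, 32886601 to 33025130, minus strand) encodes aprataxin, which clears the AMP left on a DNA end by a failed ligation. It was the member called in the same direction with both siRNAs. Its level was 3.42, 3.24 and 3.41 FPKM with control siRNA, 3.99, 4.13 and 4.18 with siRNA.1, and 3.86, 3.82 and 3.93 with siRNA.2. All 6 PARylator siRNA libraries lay above all 3 control libraries, and the siRNA.1 libraries lay above the siRNA.2 libraries. APTX rose by 19.9% with siRNA.1 (log2 0.26, SE 0.07, 95% confidence interval 0.13 to 0.39, edgeR adjusted p = 0.000636). With siRNA.2 it rose by 14.4% (log2 0.19, SE 0.07, 95% confidence interval 0.06 to 0.33, edgeR adjusted p = 0.0146), a call lost without siRNA.2 replicate 3 (log2 0.18, edgeR adjusted p = 0.0733) or control replicate 2 (log2 0.17, edgeR adjusted p = 0.0821). The difference between the siRNAs was -0.07 (95% confidence interval -0.20 to 0.06, edgeR adjusted p = 0.628).

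APLF (ENSG00000169621, GRCh38 chromosome 2, 68467572 to 68655862, plus strand) encodes a histone chaperone that binds poly(ADP-ribose) chains at breaks. It was the lowest member, with 38 to 87 counts a library. It stood at 0.40, 0.34 and 0.53 FPKM with control siRNA, 0.48, 0.41 and 0.32 with siRNA.1, and 0.45, 0.64 and 0.43 with siRNA.2. The groups overlapped. The log2 fold change was -0.10 with siRNA.1 (95% confidence interval -0.59 to 0.40, edgeR adjusted p = 0.833) and 0.23 with siRNA.2 (-0.25 to 0.71, edgeR adjusted p = 0.547). The siRNA.2 value ranged from 0.02 without siRNA.2 replicate 2 to 0.42 without control replicate 3. These were the widest intervals of the 9 members.

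The promoters of the members that passed the test are shown because UNG, LIG3 and APEX1 differed between the siRNAs and APTX rose with both. RefSeq promoter windows on GRCh38.p14, from 250 bases before to 50 after a start, were matched for 8 of the 9 members and gave 12 windows. The motifs searched on both strands were the E2F forms TTTCCCGC, TTTCGCGC, TTTGGCGC and TTTGCCGC, bound by the factors that switch genes on for S phase, the E-box CACGTG, and the ETS motif CCGGAAGT. They were chosen after the members' results were known. Of 35116 windows of the same length, 3.32% held an E2F form, 7.26% the E-box and 4.14% the ETS motif. The stretches below run in the direction of transcription, with motif matches in capitals and no overlap between matches.
UNG, chr12:109098022-109098147, plus strand, before the second RefSeq start and inside the first intron of the longer transcript: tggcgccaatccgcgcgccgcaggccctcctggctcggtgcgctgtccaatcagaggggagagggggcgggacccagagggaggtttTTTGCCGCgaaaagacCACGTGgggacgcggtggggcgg
LIG3, chr17:34980392-34980511, plus strand, up to the base before the start: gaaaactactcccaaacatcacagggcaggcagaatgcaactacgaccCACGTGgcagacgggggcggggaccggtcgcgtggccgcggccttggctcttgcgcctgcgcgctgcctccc
APEX1, chr14:20455106-20455195, plus strand, the first 2 E-boxes, ending just inside the deposited gene model: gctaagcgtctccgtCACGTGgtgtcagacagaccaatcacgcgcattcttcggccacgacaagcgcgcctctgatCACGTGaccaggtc
APTX, chr9:33025131-33025272, minus strand, the interval between its start and that of DNAJA1: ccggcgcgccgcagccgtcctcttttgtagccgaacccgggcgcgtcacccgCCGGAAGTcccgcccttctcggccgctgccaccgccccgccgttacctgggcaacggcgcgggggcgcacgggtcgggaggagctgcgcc

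UNG was the only one of the 8 members with an E2F form, 63 bases before its second start, and it held 2 E-boxes, 232 and 47 bases before that start, the nearer of which is printed. The window of its first start held none of the motifs. The UNG counts pool the transcripts of both starts, so they cannot show at which start the level changed. APEX1 held 3 E-boxes, 105, 44 and 23 bases before its start, the last outside the printed stretch, and LIG3 held 1, 72 bases before. The ETS motif lay 100 bases before the APTX start and, on the opposite strand, 6 bases before the OGG1 start. These distances are from the RefSeq starts. For APEX1 (20455226) and APTX (33025120) those starts lie inside the deposited gene models, as does the last APEX1 E-box. The printed APTX stretch ends instead at the base before the deposited start. None of the motifs was in the windows of XRCC1, APLF or MUTYH. These matches describe the letters in the windows and were not tied to binding.

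UNG transcription is known to rise as cells enter S phase, so 20 S phase genes were set beside it. With siRNA.1, 8 of the 20 rose and 4 fell, beside 15.0% higher and 15.2% lower over all genes tested, with a median log2 fold change of 0.12 and a range of -0.21 to 0.36, whereas UNG stood at -0.16. With siRNA.2, 12 rose and 1 fell, beside 15.8% and 15.1% over all genes, with a median of 0.21 and a range of -0.21 to 0.57, and UNG stood at 0.37. Between the siRNAs, 7 were higher with siRNA.2 and 0 lower, beside 6.1% and 6.06% over all genes, with a median of 0.14 and a range of -0.05 to 0.32. The UNG difference of 0.54 lay above the top of that range. Of these counts, the 4 that fell with siRNA.1 became 2 without control replicate 3, and the 1 that fell with siRNA.2 became 0 without siRNA.2 replicate 1 or 3 or control replicate 3. By flow cytometry, the paper reports that TE13 cells accumulated in S phase after PARylator knockdown. In these bulk libraries a different share of cells in S phase and a different amount of RNA per cell cannot be told apart, and the part of either in the UNG result was not tested.

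**Figure D3:**
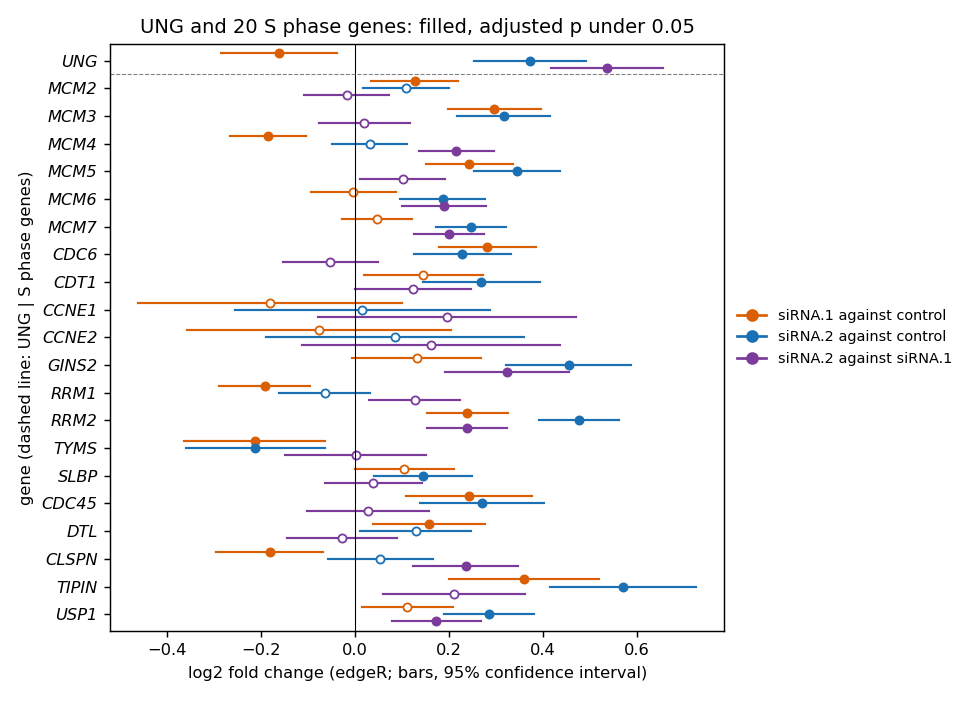
Log2 fold change by edgeR of UNG, above the dashed line, and of 20 S phase genes for the 3 comparisons, with 95% confidence intervals and filled points for an adjusted p under 0.05. UNG at 0.54 between siRNA.2 and siRNA.1 lies to the right of all 20 genes, whose highest value is 0.32.

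Several members lie close to other genes, which bears on what their counts hold. In the GENCODE v44 annotation, whose coordinates were identical to the deposited ones for all members but UNG, 14 genes shared exonic bases with a member and 5 started within 1 kb of a member's start, 17 genes in all. The shared part of the exonic length was 40.1% for MUTYH, 30.5% for LIG3, 29.0% for OGG1, 28.2% for XRCC1, 22.9% for APLF, 11.4% for APTX and 4.88% for APEX1, and UNG and POLB shared none. Whether the counting used strand, and whether it dropped reads in shared stretches, is not given in the sources used here. Levels of MUTYH, LIG3, OGG1, XRCC1 and APLF per length could therefore be off by such stretches. Of the 17 genes, 6 were listed at 0 in every library and 11 were tested, of which 5 passed with siRNA.1, 3 with siRNA.2 and 1 between the siRNAs, beside 30.3%, 30.9% and 12.2% of all genes tested. Among those at 0, ENSG00000288208, PROKR1 and ENSG00000268361 lie on the strand of their member. They share 31.6% of the exonic length of MUTYH, 22.9% of APLF and 8.16% of XRCC1. Thus no read counted for these members was also counted for that gene. PIP4P1, which shares exonic bases with APEX1, fell with siRNA.1 (log2 -0.22, edgeR adjusted p = 0.0289). TADA3, which shares them with OGG1, fell with siRNA.1 (log2 -0.44, edgeR adjusted p = 4.94e-06). Between the siRNAs TADA3 was higher with siRNA.2 (log2 0.28, edgeR adjusted p = 0.0143). CAMK1, on the other strand, shares 24.9% of the exonic length of OGG1 and had 3 to 23 counts a library. It did not pass with siRNA.1 (log2 1.30, edgeR adjusted p = 0.0501) or siRNA.2 (log2 1.26, edgeR adjusted p = 0.0548).

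RFFL, a ubiquitin ligase gene on the opposite strand, shares 29.1% of the exonic length of LIG3. Its level was 1.99, 2.47 and 2.16 FPKM with control siRNA, 1.95, 1.76 and 1.62 with siRNA.1, and 1.90, 1.82 and 1.68 with siRNA.2. RFFL was lower than control in every library of both siRNAs, at log2 -0.34 for siRNA.1 (SE 0.12, edgeR adjusted p = 0.0148) and -0.31 with siRNA.2 (SE 0.11, edgeR adjusted p = 0.0248). Both calls were lost without control replicate 2 (edgeR adjusted p = 0.150 and 0.207) and under limma, the siRNA.1 call also without siRNA.1 replicate 3 (0.109) and the siRNA.2 call without siRNA.2 replicate 3 (0.123). LIG3 and RFFL thus both fell with siRNA.1, RFFL less firmly, while with siRNA.2 RFFL passed and LIG3 did not. Without strand in the counting, reads of the shared stretch could come from either gene. Whether they were credited to LIG3, to RFFL or to neither is not given. The part of this stretch in the LIG3 result was not tested.

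DNAJA1, which encodes a co-chaperone of the heat shock protein HSP70, starts 143 bases from APTX on the other strand and shares the interval printed above. It measured 107.84, 106.66 and 105.29 FPKM with control siRNA, 135.95, 128.60 and 138.96 with siRNA.1, and 122.07, 132.54 and 128.69 with siRNA.2. All 6 PARylator siRNA libraries lay above the control libraries for this gene, as they did for APTX. DNAJA1 rose with siRNA.1 (log2 0.31, SE 0.04, edgeR adjusted p = 7.29e-12) and with siRNA.2 (log2 0.25, SE 0.04, edgeR adjusted p = 3.59e-08). These calls held in every alternative tried. By contrast, OSGEP, 102 bases from APEX1, did not pass with siRNA.2 (log2 0.07, edgeR adjusted p = 0.706), where APEX1 did, and FBXO48, 278 bases from APLF, fell with siRNA.1 (log2 -0.83, edgeR adjusted p = 0.000442) and siRNA.2 (log2 -0.63, edgeR adjusted p = 0.0083), where APLF did not pass. The siRNA.2 call of FBXO48 was lost without control replicate 1 (edgeR adjusted p = 0.0511) or 2 (0.0620) and under limma. CCT6B, 566 bases from LIG3, had 8 to 27 counts a library. It did not pass with siRNA.1 (log2 0.32, edgeR adjusted p = 0.712) or siRNA.2 (log2 0.57, edgeR adjusted p = 0.448). TOE1, 841 bases from MUTYH, passed with neither (log2 -0.07 and -0.01, edgeR adjusted p = 0.661 and 0.956).

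**Figure D4:**
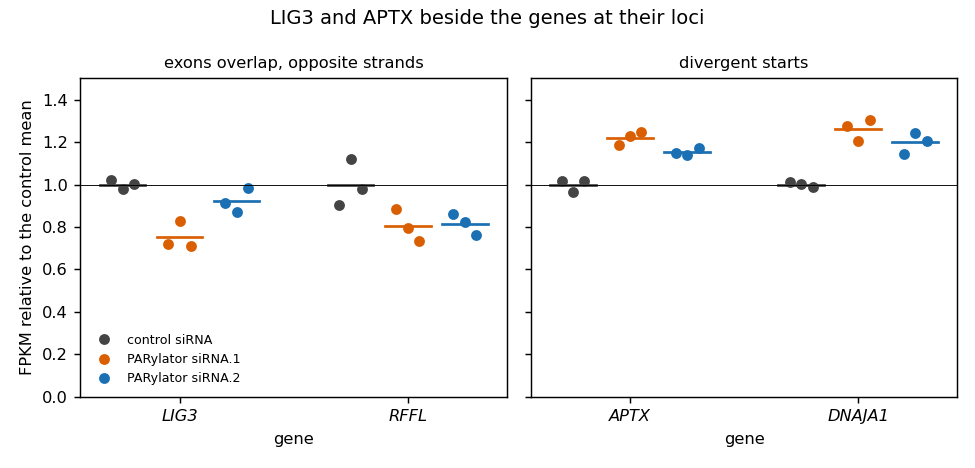
FPKM relative to the control mean of the same gene, for LIG3 with RFFL, whose exons overlap, and for APTX with DNAJA1, whose starts lie 143 bases apart. Values are shown by group, each point a library and each bar the group mean. APTX and DNAJA1 are higher in all 6 PARylator siRNA libraries than in the control libraries, and LIG3 is lowest with siRNA.1.

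The other genes of the pathway, 33 in all, were all above the filter. With siRNA.1, 12 of the 33 passed, beside 30.3% of all genes tested, 3 higher and 9 lower, with a median log2 fold change of -0.04. The 3 higher calls became 1 without siRNA.1 replicate 1. With siRNA.2, 13 passed, beside 30.9%, 9 higher and 4 lower, with a median of 0.05. Between the siRNAs 10 differed, beside 12.2%, 9 of them higher with siRNA.2, with a median of 0.06, a count that ranged from 4 to 10 over the alternatives and fell to 6 without siRNA.1 replicate 2, 5 without siRNA.1 replicate 3 and 4 without siRNA.2 replicate 3. Of the 8 other DNA glycosylases, 2 fell with siRNA.1 and 1 rose and 1 fell with siRNA.2. Of the 9 genes for break sensing and end processing, 2 rose and 5 fell with siRNA.1, and 3 rose and 2 fell with siRNA.2. Of the 16 genes for long-patch synthesis and ligation, 1 rose and 2 fell with siRNA.1, and 5 rose and 1 fell with siRNA.2. With siRNA.1, the 2 glycosylases called became 1 without siRNA.1 replicate 2 or control replicate 1 or 2. The 7 break sensing and end processing genes called became 4 without siRNA.1 replicate 2 or control replicate 2, and the 2 that rose became 0 without siRNA.1 replicate 1.

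Genes called in the same direction with both siRNAs came from each of these roles. TDG, the glycosylase that removes thymine paired with guanine and oxidised forms of methylcytosine, fell with siRNA.1 (log2 -0.31, edgeR adjusted p = 7.68e-06) and siRNA.2 (log2 -0.46, edgeR adjusted p = 2.50e-12). APEX2, a second endonuclease of the APEX1 family, fell by 0.30 and 0.42 on the log2 scale (edgeR adjusted p = 0.00206 and 7.17e-06). LIG1, the ligase of replication and long-patch repair, fell by 0.44 and 0.25 on the log2 scale (edgeR adjusted p = 3.12e-09 and 0.000962). In the other direction, POLL, a gap-filling polymerase of the same family as POLB, rose by 0.35 and 0.42 on the log2 scale (edgeR adjusted p = 0.00648 and 0.000525). RFC3, a subunit of the clamp loader, rose by 0.23 and 0.26 (edgeR adjusted p = 5.83e-05 and 1.41e-06), and PARP2, a second break-sensing polymerase, rose by 0.16 and 0.23 (edgeR adjusted p = 0.0416 and 0.00217). PARP1 was lower with siRNA.1 (log2 -0.12, edgeR adjusted p = 0.0169) and higher with siRNA.2 (log2 0.22, edgeR adjusted p = 1.30e-06), and the difference between the siRNAs was 0.34 (edgeR adjusted p = 5.81e-14). The calls of TDG, LIG1 and RFC3, and those of all the genes named here with siRNA.2, held in every alternative tried. With siRNA.1, APEX2 was lost without siRNA.1 replicate 3 (edgeR adjusted p = 0.0549) or control replicate 3 (0.0535) and under limma, and POLL without siRNA.1 replicate 1 (0.0945). PARP2 was lost with siRNA.1 in 8 of 18 alternatives, among them leaving out siRNA.1 replicate 1 (edgeR adjusted p = 0.0848) or 2 (0.165), siRNA.2 replicate 3 (0.0501) and control replicate 1 (0.237) or 2 (0.0526). The siRNA.1 call of PARP1 was lost in 7 of 18, among them leaving out siRNA.1 replicate 2 (edgeR adjusted p = 0.116) or 3 (0.0658) and control replicate 2 (0.0726), whereas its difference between the siRNAs held in all.

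**Figure D5:**
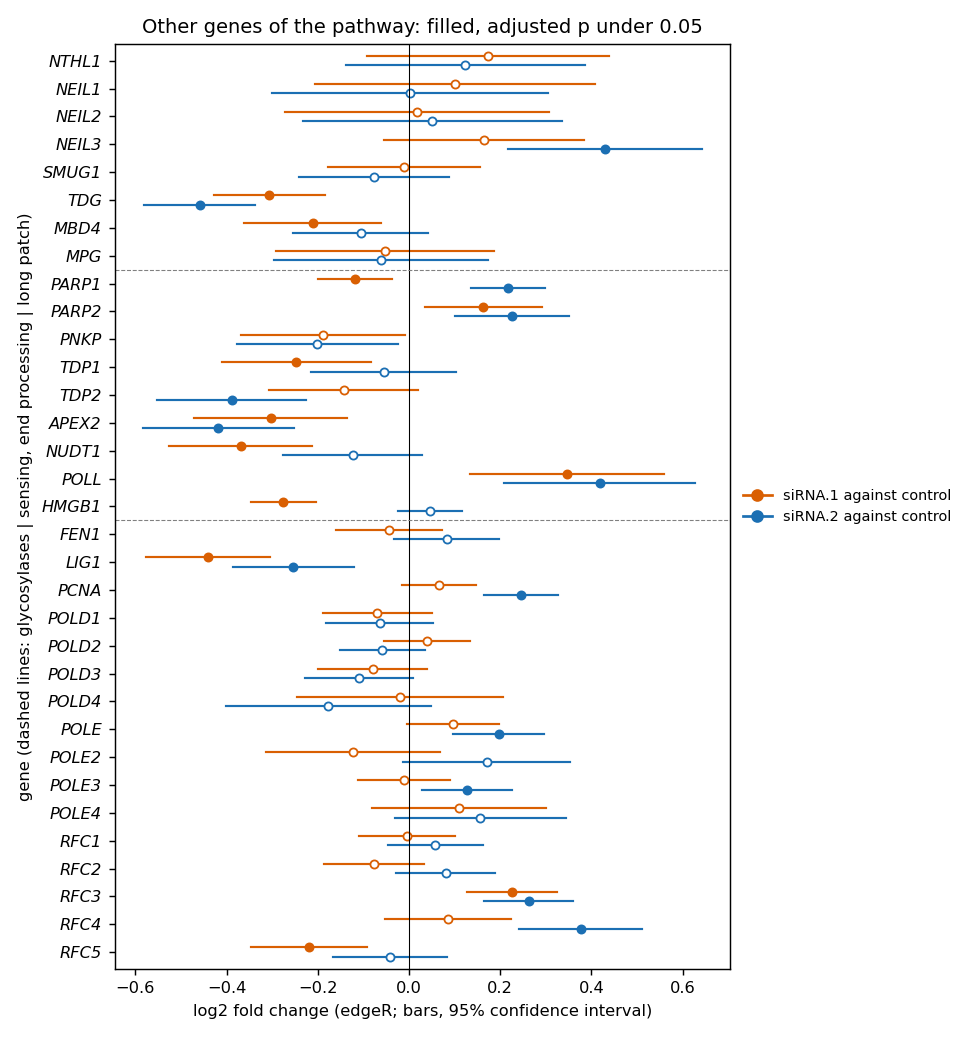
Log2 fold change by edgeR of the 33 other genes of the pathway, ordered by role, for siRNA.1 and siRNA.2 against control, with 95% confidence intervals and filled points for an adjusted p under 0.05. TDG, APEX2 and LIG1 lie below 0 and POLL and RFC3 above 0 with both siRNAs, while PARP1 lies at -0.12 and 0.22.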

How the data were processed

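Gene expression in 9 TE13 libraries (control siRNA, PARylator siRNA.1 and PARylator siRNA.2, 3 each) was measured by RNA-seq. The authors aligned reads with STAR to GRCh38 and counted them per gene with featureCounts, and the deposited table holds raw counts. The deposited table also holds FPKM, computed by the authors per gene length and library total. The annotation release, and whether counting used strand, are not given in the sources used here. Genes averaging at least 0.1 FPKM were tested with edgeR 4.0.16 in R 4.3.3 (TMM scaling, quasi-likelihood test, 1 fit of the 3 groups), an analysis tested on simulated data. Alternatives were DESeq2 1.42.0, the tool the study's methods name, limma 3.58.1 on log2(FPKM + 0.1) and log2(FPKM + 1), other scalings and filters, only the compared groups, a replicate block, and leaving out each library. Replicate libraries differed by 2.73 to 4.40 times the sampling noise (chi-square per degree of freedom), so none was a copy of another. This check cannot show that they came from separate cultures. Counts of 38 to 5114 per member limit the precision.

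The members and lists were chosen with earlier results of these data known. The genes named were the 9 members, the other pathway genes averaging at least 1 FPKM and called in the same direction with both siRNAs (up to 12, by size of change), PARP1 and PARP2, the 3 genes of at least 10 FPKM most correlated with XRCC1, and LINC00885. Genes starting within 1 kb of a member's start were also named. Of the genes that only overlapped a member's exons, those that passed the test were named. CAMK1, and the genes at 0 on the strand of their member, were named as well. The 20 S phase genes were summarised as counts, medians and ranges. Summed levels of markers of other cell types, with control siRNA, siRNA.1 and siRNA.2 in turn, were 0.64 to 1.27, 3.87 to 4.50 and 3.83 to 4.80 FPKM for 8 blood cell genes (LYZ above 1 FPKM with both PARylator siRNAs, MS4A1 at 0), 2.23 to 2.49, 1.46 to 1.64 and 1.50 to 1.72 FPKM for 6 fibroblast genes (COL1A1 above 1 FPKM), and 1.20 to 1.54, 0.71 to 0.94 and 0.44 to 0.55 FPKM for 5 endothelial genes (0 above 1 FPKM). The part of these levels in the results was not tested.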

Additional observations from a re-analysis of the deposited data

Results flagged for a closer look

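In a direct edgeR test of siRNA.2 against siRNA.1, 3 of the 9 members differed, beside 12.2% of all genes tested. That count fell to 1 under limma and without siRNA.2 replicate 3. UNG was 0.54 higher on the log2 scale with siRNA.2, having stood above control with siRNA.2 and below it with siRNA.1. LIG3 was 0.31 higher with siRNA.2, since it was below control with siRNA.1 (log2 -0.44) and did not pass with siRNA.2. APEX1 was 0.18 higher with siRNA.2, having been above control with siRNA.2 alone. The UNG difference passed in all 18 alternatives, that of LIG3 was lost in 5 of them and that of APEX1 in 4. The library values are those given for each gene in the report, and the cause of the differences was not tested.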

How the results depend on the processing

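The 27 log2 fold changes of the members (9 genes in 3 comparisons) were recomputed under 18 alternatives, giving 486 values, of which 447 kept their direction and their side of the threshold, 20 lost the call, 3 gained it and 16 changed sign. All sign changes were of uncalled values and left them uncalled, and their cause was not tested. With siRNA.1, APEX1 moved from -0.0022 to 0.025 with library totals alone, 0.0049 with no filter and 0.025 under both limma fits. The remaining sign changes came from leaving out 1 library. Over those fits the siRNA.1 value ranged from -0.030 to 0.031 for APEX1 (above 0 without siRNA.1 replicate 2 or control replicate 3), -0.25 to 0.10 for APLF (above 0 without siRNA.1 replicate 3 or control replicate 3) and -0.29 to 0.034 for OGG1 (above 0 without control replicate 2). The siRNA.2 value of OGG1 ranged from -0.17 to 0.15 (below 0 without siRNA.2 replicate 3 or control replicate 1). Between the siRNAs the range was -0.11 to 0.012 for XRCC1 (above 0 without siRNA.1 replicate 1), -0.0057 to 0.14 for POLB (below 0 without siRNA.1 replicate 3), -0.0048 to 0.20 for OGG1 (below 0 without siRNA.2 replicate 3) and -0.24 to 0.17 for MUTYH (above 0 without siRNA.1 replicate 3 or siRNA.2 replicate 2). Leaving out 1 library at a time, the number of members called was 2 to 3 with siRNA.1, 2 to 4 with siRNA.2 and 1 to 3 between the siRNAs, and that of the 33 other pathway genes between the siRNAs was 4 to 10. The last 2 counts were 1 and 4 under limma with either pseudocount, and the other pathway count was 6 with no filter. Over all genes, calls between the siRNAs fell from 2603 to 1437 and 1414 under limma with pseudocounts of 0.1 and 1 FPKM. Libraries with the same replicate number had correlated deviations of -0.19 to 0.11, beside -0.08 to 0.18 for libraries with different numbers. This check showed no pairing by number but cannot exclude one, since deviations within a group of 3 are tied to each other. With the number as a block, 2 members were called with siRNA.1, since UNG was lost (log2 -0.16, edgeR adjusted p = 0.0524), 3 with siRNA.2 and 3 between the siRNAs. After the data were seen, the same alternatives were run on 24 of the fold changes given for genes outside the members, from 12 genes. Of 430 values, 397 kept direction and side of the threshold, 32 lost the call, 1 gained it and 0 changed sign. CCT6B, TOE1, PIP4P1, TADA3 and CAMK1 were not among these genes. The alternatives were also run on the S phase genes, of which 9 to 14 were called with siRNA.1, 11 to 14 with siRNA.2 and 6 to 8 between the siRNAs. The counts by role were run too. With siRNA.1 the glycosylases called fell from 2 to 1 with library totals alone, DESeq2 or limma, and the break sensing and end processing genes from 7 to 4 under limma. The depth of APLF, OGG1 and MUTYH, at most 201 counts a library, limits what could be seen in these genes.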
